A study of Homo sapiens with 18 samples.

Results

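The genes described here are 48 factors of ribosome biogenesis, chosen as a list of symbols with earlier results of these data known. They were found by Ensembl identifier among the 57905 genes of each count table. Every one of the 48 symbols matched 1 identifier, and all 48 were expressed well enough to be tested in every comparison. They fall into RNA polymerase I subunits (3), small nucleolar RNP proteins and nucleolar chaperones (6), the small subunit processome (19), late small subunit factors (4), the PeBoW complex (3), large subunit factors (11) and nucleolar factors linked to transcription (2). The study measured poly(A)+ RNA by strand-specific sequencing in 2 human plasma cell lines. KMS12-BM (labelled KMS-12) is a multiple myeloma line and JJN3 a plasma cell leukemia line. Each line was treated for 24 h with TG003 at 0.4 mM, treated for 24 h with amiloride, or left as a control labelled untreated (DMSO) with no dose or duration, with 3 libraries in each of the 6 groups. KMS12-BM received amiloride at 0.1 mM and JJN3 at 0.4 mM. TG003 inhibits CLK kinases, enzymes that phosphorylate splicing factors, and amiloride is a potassium-sparing diuretic that acts on sodium channels and on sodium-proton exchange. The lines were grown in different shares of fetal bovine serum, so serum and line cannot be told apart.

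A ribosome is built in the nucleolus. RNA polymerase I copies the ribosomal RNA genes, small nucleolar RNPs guide chemical marks onto the transcript, and large assemblies of helper proteins fold and cut it while ribosomal proteins join. The small subunit processome makes the precursor of the small subunit, and the PeBoW complex and its neighbours make that of the large one. Plasma cells secrete large amounts of antibody and depend on many ribosomes, and the transcription factor MYC, often overactive in myeloma, is known to drive many of these genes.

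The KMS12-BM libraries held 29794926 to 50570234 reads in genes and the JJN3 libraries 23707695 to 44601334, and the 48 genes took up 0.689% to 1.02% of them. The line labels matched the line markers: CCND1 averaged 951 CPM (reads of a gene relative to the scaled library size) in KMS12-BM and 1.3 in JJN3 with DMSO, and MAF averaged 0.37 and 876. Of 18 detected markers of T, myeloid, erythroid, stromal, endothelial and epithelial cells, 5 to 8 were at 0 in every library of a group, and the sum of the 18 lay between 44.9 and 196 CPM in all libraries. The 6 TG003 libraries stood apart from the other 12. Processed pseudogenes, which are intronless copies of messenger RNAs, held 0.106% to 0.13% of their reads, against 4.5% to 5.63% in the other libraries, and reads placed at more than 1 site made up 7.79% to 9.13%, against 13.3% to 17.4%. This difference in read placement goes with TG003 in both lines, so in a TG003 against DMSO comparison it cannot be told apart from the drug. The KMS12-BM and JJN3 libraries with TG003 overlapped in their processed pseudogene shares (0.106% to 0.13% and 0.113% to 0.13%). They did not overlap in reads placed at more than 1 site (7.79% to 8.23% and 8.34% to 9.13%) or in reads outside genes (7.56% to 8.17% and 6.42% to 7.17%). With DMSO the lines also differed in reads placed at more than 1 site (16.1% to 16.2% and 16.6% to 17.4%). The part of read placement in the line difference was not tested.

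The promoters of 42 of the 48 genes were in the RefSeq table (GRCh38.p14), and the 250 bases before each start were searched on both strands. The letters CCGGAAG (or CTTCCGG), which resemble the element bound by ETS factors, were in 18 of the 42, that is in 42.9%, against 12.1% of 14998 coding genes. The E-box CACGTG, which reads the same on both strands and is the element of MYC with MAX, was in 5 of the 42 (11.9%), against 7.85% of coding genes. A match is a description of the letters and not evidence of binding. Windows from genes that the results below turn on follow, with the matched letters in capitals. UTP4 (chr16:69132579-69132633 and chr16:69132609-69132648, plus strand) holds both elements, starting 46 and 16 bases before the start, as does UTP18, whose CTTCCGG lies 63 bases and whose E-box 89 bases before the start. The CCGGAAG windows are from POLR1B (chr2:112541886-112541940, plus strand), FBL (chr19:39846542-39846596, minus strand), RRP9 (chr3:51942105-51942154, minus strand), PWP2 (chr21:44107295-44107349, plus strand) and DDX21 (chr10:68956086-68956140, plus strand). The E-box windows are from IMP4 (chr2:130342670-130342723, plus strand) and UTP18 (chr17:51260433-51260486, plus strand).
UTP4 CTTCCGG: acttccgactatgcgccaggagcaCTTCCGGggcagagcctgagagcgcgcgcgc
UTP4 E-box: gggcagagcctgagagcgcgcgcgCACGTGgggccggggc
POLR1B: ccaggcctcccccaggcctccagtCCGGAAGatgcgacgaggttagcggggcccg
FBL: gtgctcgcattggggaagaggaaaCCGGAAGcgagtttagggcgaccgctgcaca
RRP9: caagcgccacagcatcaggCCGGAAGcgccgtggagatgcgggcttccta
PWP2: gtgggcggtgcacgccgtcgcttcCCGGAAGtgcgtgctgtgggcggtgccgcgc
DDX21: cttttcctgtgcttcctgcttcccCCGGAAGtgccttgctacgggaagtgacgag
IMP4 E-box: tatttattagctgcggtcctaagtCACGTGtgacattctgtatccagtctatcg
UTP18 E-box: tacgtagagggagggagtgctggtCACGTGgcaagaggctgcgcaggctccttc

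TG003 had opposite net directions over these genes in the 2 lines. In KMS12-BM, 26 of the 48 fell and 5 rose. In JJN3, 28 rose and 5 fell. A gene is said to rise or fall where edgeR's quasi-likelihood test gave a Benjamini-Hochberg adjusted p under 0.05 over all genes tested. Among all 15765 genes tested in KMS12-BM, 31.7% were called lower and 26.9% higher, and among 15704 in JJN3, 32.1% were called lower and 26.2% higher. The median log2 fold change of the 48 was -0.29 in KMS12-BM (range -0.82 for DDX21 to 0.81 for TBL3) and 0.30 in JJN3 (range -0.69 for FBL to 1.54 for BOP1), beside medians of -0.028 and -0.038 over all genes. All 8 plasma cell markers fell with TG003 in both lines, with summed levels of 904 to 959 CPM with TG003 against 2072 to 2158 CPM with DMSO in KMS12-BM, and 1071 to 1177 CPM against 1953 to 2139 CPM in JJN3. Their part in the results was not tested. In bulk RNA, fewer transcripts per cell and fewer cells of a kind cannot be told apart.

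Sorted by their calls in the 2 lines, 5 genes rose in both (BOP1, UTP4, TBL3, NOC2L and NOC4L) and 5 fell in both (FBL, NCL, PPAN, IMP3 and IMP4). A further 7 fell in KMS12-BM and rose in JJN3: WDR12, WDR36, WDR43, POLR1A, MYBBP1A, DDX10 and MRTO4. Another 14 fell in KMS12-BM and were not called in JJN3, 16 rose in JJN3 and were not called in KMS12-BM, and BYSL was called in neither. No gene rose in KMS12-BM alone or fell in JJN3 alone. The share of all genes with each pair of calls is not given here. Whether these counts differ from that background was not tested. With the replicate number (the order of the library numbers within each group) as a block, BYSL was called in both lines (log2 -0.28, adjusted p = 0.0401 in KMS12-BM, and 0.17, 0.0445 in JJN3), and NOP2, UTP15, WDR75 and BMS1 were called in KMS12-BM as well (adjusted p = 0.0403, 0.04, 0.0194 and 0.0313).

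**Figure D1:**
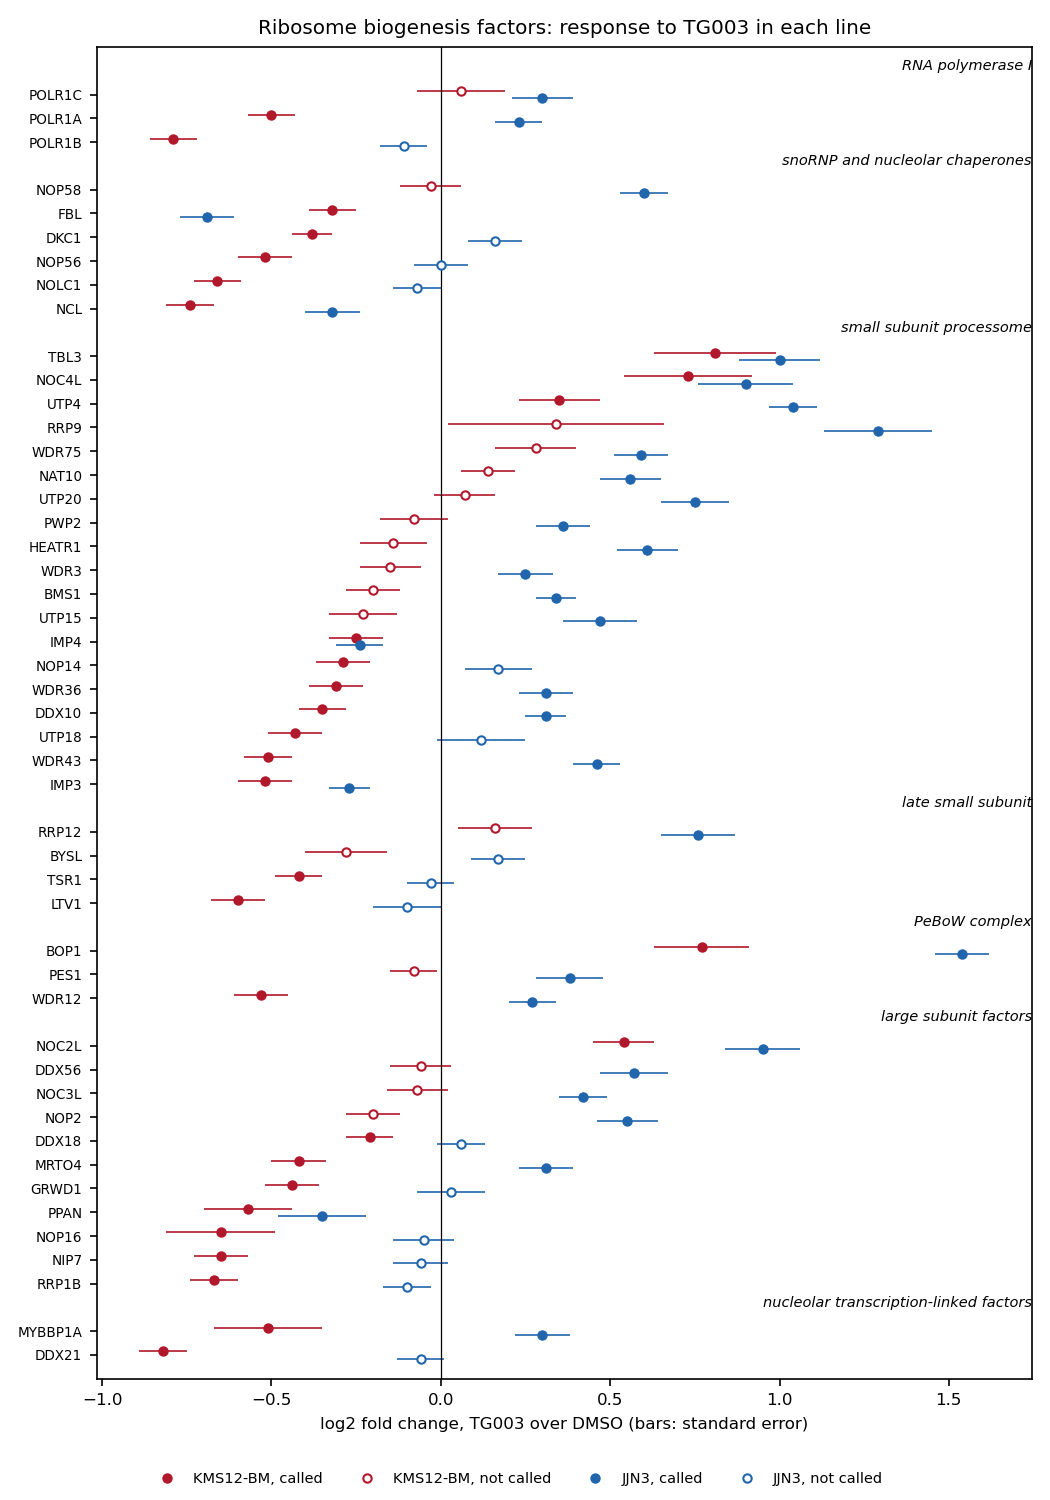
Log2 fold change of each of the 48 genes with TG003 over DMSO in KMS12-BM (red) and JJN3 (blue), grouped by role; bars are standard errors and filled points were called at an adjusted p under 0.05. The blue point lies to the right of the red one for every gene but FBL, and the points of IMP4 nearly coincide (-0.25 in KMS12-BM and -0.24 in JJN3), with medians of -0.29 in KMS12-BM and 0.30 in JJN3.

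The difference between the 2 responses was tested directly, as the KMS12-BM response minus the JJN3 response in 1 fit of all 18 libraries. It was below 0 for 46 of the 48 genes. Of the 48, 34 were called lower and 1 higher, beside 6.8% called lower and 7.13% called higher among 17772 genes. The list was chosen with earlier results of these data known, so the share of all genes stands beside it as a description only. The median difference was -0.52 on the log2 scale, beside 0.016 over all genes. The 34 include members of every role. Leaving out each library in turn gave 28 to 37 genes called lower, and the fit of the 4 compared groups alone gave 41. Of the 34, 7 lost the call in some of the fits without 1 library: UTP18 in 11 (adjusted p up to 0.114), PWP2 and NAT10 in 7 (up to 0.0791 and 0.0771), NOP14 in 5 (up to 0.082), and RRP12, PES1 and GRWD1 in 4 (up to 0.0671, 0.0601 and 0.0583, edgeR). In the plot of the sorted differences, the genes called lower run from WDR43 (-0.95) to TSR1 (-0.37).

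**Figure D2:**
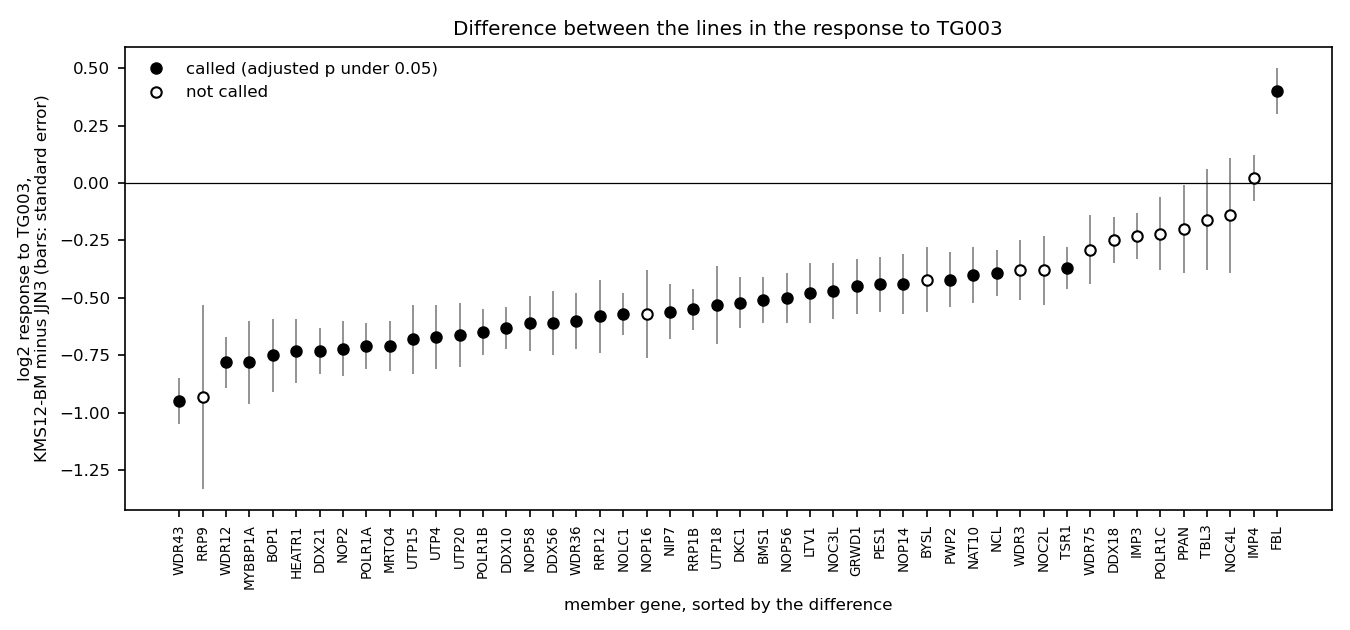
Difference between the lines in the log2 response to TG003 (KMS12-BM minus JJN3) for the 48 genes in sorted order; bars are standard errors, filled points were called at an adjusted p under 0.05. The 34 filled points below 0 run from WDR43 at -0.95 to TSR1 at -0.37, and FBL at 0.40 is the 1 filled point above 0.

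Of the RNA polymerase I subunits, POLR1B, the second-largest subunit, was at 85.3, 79.4 and 87.6 CPM in KMS12-BM with TG003, against 150, 141 and 146 CPM with DMSO. All 3 treated libraries lay below all 3 controls, and POLR1B fell by 0.79 ± 0.07 (log2 ± standard error, adjusted p = 2.74e-06, edgeR). In JJN3 it was at 83.8, 94 and 96 CPM with TG003, against 93.7, 105 and 103 CPM with DMSO, where the ranges overlapped and the gene was not called (-0.11 ± 0.07). POLR1A, which carries the catalytic site, fell by 0.50 ± 0.07 in KMS12-BM (76.5 ± 4.85 CPM with TG003 and 109 ± 5.46 CPM with DMSO, SD, n = 3) and rose by 0.23 ± 0.07 in JJN3 (112 ± 3.35 and 97.7 ± 5.99 CPM). For both genes the line difference was called, at -0.65 ± 0.10 for POLR1B and -0.71 ± 0.10 for POLR1A (adjusted p = 0.000261 and 0.0001). POLR1C, shared by RNA polymerases I and III, was at 47, 54 and 53.1 CPM in KMS12-BM with TG003, against 41.4, 46.1 and 61.1 CPM with DMSO, and at 76, 73.2 and 72.8 CPM in JJN3 with TG003, against 68.1, 56.5 and 60 CPM with DMSO. It rose in JJN3 (0.30 ± 0.09, adjusted p = 0.0105, edgeR) and overlapped in KMS12-BM. The rise in JJN3 lost its call in a fit of all 18 libraries and without JJN3 DMSO replicate 2 (adjusted p = 0.0576 and 0.0578, edgeR). The line difference of POLR1C, -0.22 ± 0.16, was not called.

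The most abundant of the 48 genes are in the group of small nucleolar RNP proteins and nucleolar chaperones. Here 5 of 6 fell in KMS12-BM, with none higher, while in JJN3 NOP58 rose, FBL and NCL fell and 3 were not called. NCL (nucleolin), an abundant RNA-binding nucleolar protein, was at 1246, 1158 and 1302 CPM in KMS12-BM with TG003, against 2099, 2093 and 2026 CPM with DMSO. In JJN3 it was at 1395, 1411 and 1444 CPM with TG003, against 1936, 1814 and 1673 CPM with DMSO. All treated libraries were below the controls of their line, with falls of 0.74 ± 0.07 in KMS12-BM and 0.32 ± 0.08 in JJN3, and the line difference was -0.39 ± 0.10 (adjusted p = 5.21e-06, 0.00272 and 0.0114, edgeR).

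FBL (fibrillarin), the methyltransferase of box C/D snoRNPs, was the 1 gene whose line difference was called in the other direction. It was at 374, 396 and 419 CPM in KMS12-BM with TG003, against 502, 469 and 516 CPM with DMSO, and at 410, 382 and 385 CPM in JJN3 with TG003, against 656, 658 and 627 CPM with DMSO. The treated libraries of the 2 lines covered nearly the same range, while the JJN3 controls were the highest. FBL fell by 0.32 ± 0.07 in KMS12-BM and by 0.69 ± 0.08 in JJN3, a difference of 0.40 ± 0.10 (adjusted p = 0.0108, edgeR). Of its partners in the same RNP, NOP56 averaged 391 ± 25.6 CPM with TG003 and 562 ± 22.9 CPM with DMSO in KMS12-BM (-0.52 ± 0.08) and 609 ± 9.27 and 621 ± 67.9 CPM in JJN3 (0.00 ± 0.08). NOP58 averaged 190 ± 11.8 and 195 ± 16 CPM in KMS12-BM (-0.03 ± 0.09) and rose in JJN3 (199 ± 9.33 CPM with TG003 and 134 ± 5.83 CPM with DMSO, 0.60 ± 0.07). DKC1, the pseudouridine synthase of H/ACA snoRNPs, and NOLC1, a snoRNP chaperone, fell in KMS12-BM by 0.38 ± 0.06 and 0.66 ± 0.07 and were not called in JJN3 (0.16 ± 0.08 and -0.07 ± 0.07). The line difference was called for all 6 genes of this group, 5 of them below 0.

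The small subunit processome holds 19 of the genes. In KMS12-BM, 7 fell, 3 rose and 9 were not called, beside 31.7% lower and 26.9% higher among all genes tested. In JJN3, 15 rose, 2 fell and 2 were not called, beside 26.2% higher and 32.1% lower. The line difference was called lower for 12 and higher for none, beside 6.8% and 7.13%. WDR43, a part of the UTP-A subcomplex that first joins the nascent transcript, was at 96.9, 93.8 and 102 CPM in KMS12-BM with TG003, against 134, 148 and 136 CPM with DMSO. In JJN3 it was at 117, 129 and 124 CPM with TG003, against 97.8, 86.1 and 90.4 CPM with DMSO. The ranges did not overlap in either line and the directions were opposite, at -0.51 ± 0.07 in KMS12-BM and 0.46 ± 0.07 in JJN3. Its line difference of -0.95 ± 0.10 was the largest of the 48 in size (adjusted p = 6.91e-06, edgeR).

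UTP4, of the same subcomplex, was at 72, 76.1 and 79.2 CPM in KMS12-BM with TG003, against 53.7, 61.1 and 63.8 CPM with DMSO, and at 254, 237 and 248 CPM in JJN3 with TG003, against 130, 120 and 117 CPM with DMSO. It rose in both lines, by 0.35 ± 0.12 and by 1.04 ± 0.07, and the line difference was -0.67 ± 0.14 (adjusted p = 0.00295, edgeR). The rise in KMS12-BM lost its call without KMS12-BM DMSO replicate 1, TG003 replicate 2 or TG003 replicate 3 (adjusted p = 0.0777, 0.0575 and 0.0728, edgeR). Of the other UTP-A genes, HEATR1 rose by 0.61 ± 0.09 and UTP15 by 0.47 ± 0.11 in JJN3 with called line differences of -0.73 ± 0.14 and -0.68 ± 0.15. WDR75 rose by 0.59 ± 0.08 in JJN3, and its difference of -0.29 ± 0.15 was not called.

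RRP9, a protein of the U3 snoRNP, was at 55.2, 48.7 and 49.4 CPM in KMS12-BM with TG003, against 43.7, 37.6 and 40.1 CPM with DMSO, and at 82, 70.6 and 76.2 CPM in JJN3 with TG003, against 35.5, 31.2 and 28.5 CPM with DMSO. All treated libraries were above the controls of their line. RRP9 rose in JJN3 (1.29 ± 0.16, adjusted p = 3.98e-05, edgeR) and was not called in KMS12-BM (0.34 ± 0.32, adjusted p = 0.388). Its line difference of -0.93 ± 0.40 was not called (adjusted p = 0.152). The gene's spread in these fits includes a KMS12-BM amiloride library (replicate 3) at 7.7 CPM, beside 23.5 and 23.8 CPM in the other two. Without that library RRP9 was called higher in KMS12-BM and its line difference was called (adjusted p = 0.0056 and 0.00166, edgeR), as they were in fits of the compared groups alone (adjusted p = 0.00621 and 0.000201).

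TBL3 and NOC4L rose in both lines with no called line difference. TBL3, a UTP-B subunit, was at 67.6, 60.7 and 54.9 CPM in KMS12-BM with TG003, against 43, 34.1 and 27.9 CPM with DMSO, and at 61.3, 49.1 and 55.9 CPM in JJN3 with TG003, against 27.1, 29.1 and 28.6 CPM with DMSO. NOC4L was at 29.7, 26.8 and 23.2 CPM in KMS12-BM with TG003, against 20.5, 13.7 and 14.3 CPM with DMSO, and at 24.7, 19.9 and 22.4 CPM in JJN3 with TG003, against 12.1, 12.9 and 11.7 CPM with DMSO. Neither gene's ranges overlapped in either line. TBL3 rose by 0.81 ± 0.18 in KMS12-BM and 1.0 ± 0.12 in JJN3, and NOC4L by 0.73 ± 0.19 and 0.90 ± 0.14. Their line differences were -0.16 ± 0.22 and -0.14 ± 0.25, and neither sign was kept without KMS12-BM DMSO replicate 1 (0.00 and 0.05). TBL3 shares 18.1% of its exon bases with a gene on the same strand and lies opposite another over 30% of them, and whether reads were counted by strand is not given in the sources used here.

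IMP3 and IMP4, which hold the U3 snoRNA to the precursor RNA, fell in both lines. IMP4 was at 82.9, 89.8 and 91.6 CPM in KMS12-BM with TG003, against 104, 105 and 106 CPM with DMSO, and at 98.2, 90.4 and 97.4 CPM in JJN3 with TG003, against 117, 115 and 114 CPM with DMSO. The treated libraries were below the controls in both lines, with falls of 0.25 ± 0.08 and 0.24 ± 0.07, and the line difference was 0.02 ± 0.10. The fall of IMP4 in KMS12-BM was no longer called after a trend with GC content was removed (-0.17, adjusted p = 0.142, edgeR). IMP3 fell by 0.52 ± 0.08 and 0.27 ± 0.06, and 37.8% of its exon bases lie opposite other genes.

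Of the remaining processome genes, UTP18 and NOP14 fell in KMS12-BM and were not called in JJN3 (-0.43 ± 0.08 and 0.12 ± 0.13 for UTP18, -0.29 ± 0.08 and 0.17 ± 0.10 for NOP14). WDR36, a UTP-B subunit, and the helicase DDX10 fell in KMS12-BM (-0.31 ± 0.08 and -0.35 ± 0.07) and rose in JJN3 (0.31 ± 0.08 and 0.31 ± 0.06). UTP20, PWP2, NAT10 (an RNA acetyltransferase), WDR3 and the GTPase BMS1 rose in JJN3, from 0.25 ± 0.08 for WDR3 to 0.75 ± 0.10 for UTP20, and lay between -0.20 ± 0.08 and 0.14 ± 0.08 in KMS12-BM without a call.

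Among the late small subunit factors, LTV1 and TSR1 fell in KMS12-BM (65.4 ± 2.88 CPM with TG003 and 99.6 ± 6.65 CPM with DMSO for LTV1, 67.2 ± 3.49 and 90.5 ± 1.77 CPM for TSR1) and were not called in JJN3. RRP12 rose in JJN3 (82.3 ± 2.97 CPM with TG003 and 49.7 ± 6.28 CPM with DMSO, 0.76 ± 0.11) and was not called in KMS12-BM (0.16 ± 0.11). The line difference was called lower for these 3 and not for BYSL (-0.42 ± 0.14, adjusted p = 0.0554, edgeR).

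The PeBoW complex joins PES1, BOP1 and WDR12 in 1 assembly that matures the large subunit RNA, and its 3 genes had 3 different calls in KMS12-BM. BOP1 was at 29.3, 23.6 and 26.7 CPM in KMS12-BM with TG003, against 17.6, 15.1 and 14.2 CPM with DMSO, and at 71, 67.7 and 72 CPM in JJN3 with TG003, against 26.3, 24.2 and 23.2 CPM with DMSO. WDR12 was at 73.8, 72 and 77.9 CPM in KMS12-BM with TG003, against 100, 106 and 118 CPM with DMSO, and at 85.6, 93.4 and 86.2 CPM in JJN3 with TG003, against 70.2, 79.8 and 74.6 CPM with DMSO. Neither gene's ranges overlapped in either line. BOP1 rose by 0.77 ± 0.14 in KMS12-BM and 1.54 ± 0.08 in JJN3, whereas WDR12 fell by 0.53 ± 0.08 in KMS12-BM and rose by 0.27 ± 0.07 in JJN3. PES1 averaged 122 ± 1.5 CPM with TG003 and 130 ± 6.89 CPM with DMSO in KMS12-BM (-0.08 ± 0.07) and rose by 0.38 ± 0.10 in JJN3. In the line difference all 3 were called lower, at -0.75 ± 0.16 for BOP1, -0.78 ± 0.11 for WDR12 and -0.44 ± 0.12 for PES1 (adjusted p = 0.00368, 0.00012 and 0.0193, edgeR). The call of PES1 was lost without KMS12-BM DMSO replicate 2, JJN3 DMSO replicate 2, JJN3 DMSO replicate 3 or JJN3 TG003 replicate 1 (adjusted p = 0.056, 0.0517, 0.0601 and 0.0593, edgeR).

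Of the 11 other large subunit factors, 7 fell, 1 rose and 3 were not called in KMS12-BM. In JJN3, 5 rose, 1 fell and 5 were not called. The shares of all genes tested were 31.7% lower and 26.9% higher in KMS12-BM, and 32.1% lower and 26.2% higher in JJN3. RRP1B, NIP7, NOP16 and GRWD1, a chaperone of the ribosomal protein RPL3, fell in KMS12-BM by 0.67 ± 0.07, 0.65 ± 0.08, 0.65 ± 0.16 and 0.44 ± 0.08, and lay between -0.10 ± 0.07 and 0.03 ± 0.10 in JJN3 without a call. MRTO4 fell in KMS12-BM (-0.42 ± 0.08) and rose in JJN3 (0.31 ± 0.08). NOP2, a methyltransferase of the large subunit RNA, was at 163, 152 and 166 CPM in KMS12-BM with TG003, against 176, 195 and 184 CPM with DMSO, and at 140, 127 and 130 CPM in JJN3 with TG003, against 104, 90.9 and 81.1 CPM with DMSO. It rose in JJN3 (0.55 ± 0.09), was not called in KMS12-BM (-0.20 ± 0.08), and had a called line difference of -0.72 ± 0.12. The helicase DDX56 rose in JJN3 (0.57 ± 0.10) and was not called in KMS12-BM (-0.06 ± 0.09).

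PPAN was at 11, 10 and 9.67 CPM in KMS12-BM with TG003, against 17.9, 15 and 13 CPM with DMSO, and at 11.6, 9.99 and 10.3 CPM in JJN3 with TG003, against 14, 12.5 and 15.1 CPM with DMSO. All treated libraries were below the controls of their line, and PPAN fell by 0.57 ± 0.13 and 0.35 ± 0.13, with a line difference of -0.20 ± 0.19 that was not called. The fall in JJN3 lost its call in 4 of the fits that leave out 1 library (adjusted p up to 0.101, edgeR). PPAN shares 49.2% of its exon bases with the read-through gene PPAN-P2RY11 and with P2RY11 on the same strand, so its counts are uncertain.

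NOC2L, the homolog of a yeast protein that moves large subunit precursors toward export, was the 1 member with many reads on processed copies. Its copies held 1428 to 2691 reads in each DMSO and amiloride library and 0 to 4 in each TG003 library, and they made up 30.2% of the reads of gene and copies together where they were read. NOC2L itself averaged 204 ± 3.32 CPM with TG003 and 141 ± 10.5 CPM with DMSO in KMS12-BM (0.54 ± 0.09) and 270 ± 24 and 143 ± 21.5 CPM in JJN3 (0.95 ± 0.11). With the copies added to the gene, the rise in KMS12-BM was no longer called (0.04, adjusted p = 0.635, edgeR) and that in JJN3 was 0.38 (adjusted p = 0.00383). The line difference hardly moved, from -0.38 ± 0.15 (adjusted p = 0.0899) to -0.37 (adjusted p = 0.0553, edgeR), and it was called with the replicate block (adjusted p = 0.0491), as was that of NOP16 (adjusted p = 0.0322). Only 4 other members had at least 10 reads on copies in a library, DDX10, DDX18, NIP7 and PES1, and their TG003 calls in each line held with copies added.

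DDX21, a helicase that links RNA polymerase I and II transcription to RNA processing, was at 294, 257 and 288 CPM in KMS12-BM with TG003, against 478, 509 and 498 CPM with DMSO, and at 366, 406 and 398 CPM in JJN3 with TG003, against 425, 404 and 418 CPM with DMSO. The KMS12-BM ranges were far apart, with a fall of 0.82 ± 0.07, the largest of the 48 in that line (adjusted p = 1.93e-06, edgeR). The JJN3 ranges overlapped (-0.06 ± 0.07), and the line difference was -0.73 ± 0.10 (adjusted p = 7.03e-05). MYBBP1A, a nucleolar MYB-binding protein, was at 73.8, 50.8 and 63.3 CPM in KMS12-BM with TG003, against 104, 89.3 and 75.1 CPM with DMSO, and at 231, 212 and 232 CPM in JJN3 with TG003, against 198, 183 and 179 CPM with DMSO. It fell by 0.51 ± 0.16 in KMS12-BM and rose by 0.30 ± 0.08 in JJN3, with a difference of -0.78 ± 0.18 (adjusted p = 0.006, edgeR). The difference was called under every alternative run. The fall in KMS12-BM lost its call without KMS12-BM DMSO replicate 1 or TG003 replicate 2 (adjusted p = 0.0643 and 0.064), and the rise in JJN3 lost its call in a fit of all 18 libraries (adjusted p = 0.0793, edgeR).

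**Figure D3:**
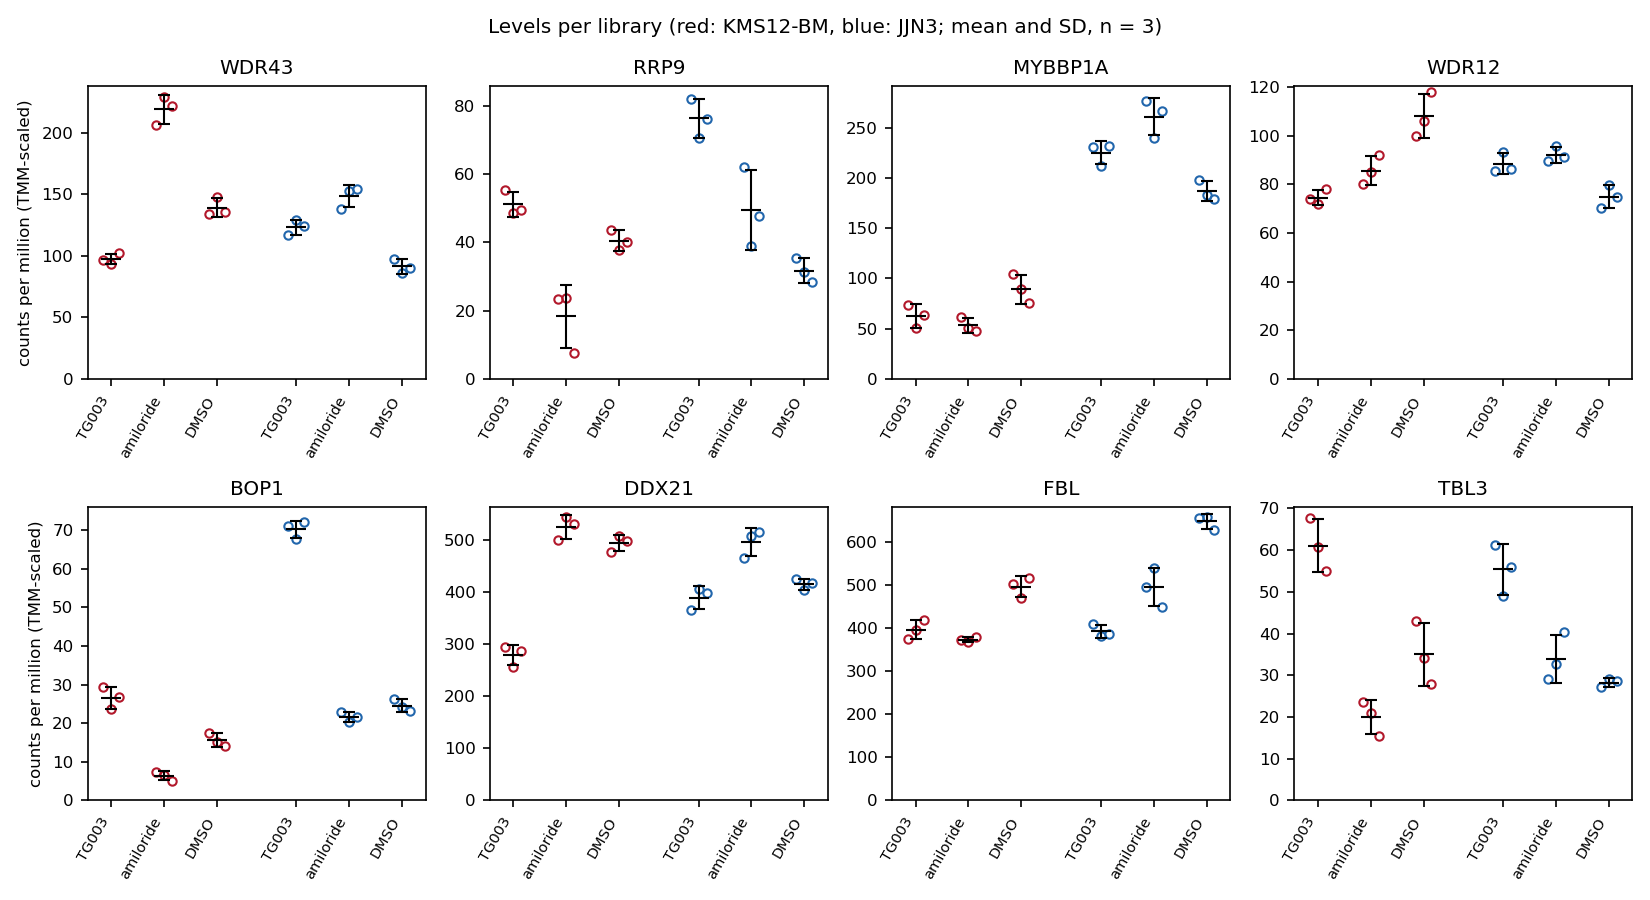
CPM (TMM-scaled, axis from 0) of 8 genes in each library, by line (red KMS12-BM, blue JJN3) and treatment, with the mean and SD of 3 libraries in black. WDR43, MYBBP1A and WDR12 lie below the DMSO libraries with TG003 in KMS12-BM and above them in JJN3; BOP1, TBL3 and RRP9 lie above in both lines, and FBL below in both.

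The summed level of the 48 genes, which the abundant NCL, NOLC1, NOP56 and FBL weigh most, was 6524 to 7059 CPM in KMS12-BM with TG003, against 9038 to 9106 CPM with DMSO. In JJN3 it was 8665 to 8777 CPM with TG003, against 7908 to 8798 CPM with DMSO. On this TMM-scaled measure the KMS12-BM ranges were apart and those of JJN3 overlapped, even though 28 genes rose there. As an unscaled share of the reads in genes, the JJN3 ranges were apart as well. The 48 held 0.855% to 0.87% with TG003 there, against 0.747% to 0.833% with DMSO. In KMS12-BM the shares were 0.689% to 0.738% and 0.887% to 0.898%. The reads in genes include those on processed pseudogenes. These held 5.46% to 5.61% in JJN3 with DMSO and 0.113% to 0.13% with TG003. The unscaled shares with DMSO and with TG003 therefore rest on unlike totals, and the part of this in the JJN3 ranges was not tested.

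The lines also differed before treatment. Between the DMSO groups, 20 of the 48 genes were higher and 16 lower in KMS12-BM, beside 36.8% and 39.3% of all genes tested, a share close to the background. DDX56 was at 309, 292 and 291 CPM in KMS12-BM, against 110, 105 and 81.6 CPM in JJN3 (1.59 ± 0.10, adjusted p = 7.84e-12, edgeR). NOP2 and UTP18, both described above, were higher by 1.01 ± 0.09 and 0.92 ± 0.12. TSR1 was at 89.9, 89.2 and 92.5 CPM in KMS12-BM, against 211, 216 and 206 CPM in JJN3 (-1.22 ± 0.07), WDR3 at 106, 132 and 132 CPM against 290, 273 and 239 CPM (-1.11 ± 0.09), and MYBBP1A was lower as well (-1.06 ± 0.13). These 6 genes are the extremes of this same comparison, so it carries no weight that none of them overlapped between the lines. Per kilobase of exon, the DMSO levels in KMS12-BM ran from 3.01 CPM for UTP15 to 232 CPM for NCL and FBL, and in JJN3 from 3.97 CPM for TBL3 to 303 CPM for FBL.

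With amiloride the 2 lines again had opposite net directions, at doses that differ. In KMS12-BM at 0.1 mM, 25 of the 48 fell and 8 rose, beside 35.2% lower and 33.5% higher of all genes tested, with a median log2 fold change of -0.20. In JJN3 at 0.4 mM, 32 rose and 2 fell, beside 19.7% higher and 23.9% lower, with a median of 0.29. The line difference was called lower for 27 and higher for 2 (beside 21.6% of all genes in each direction), with a median of -0.39, and here line and dose cannot be told apart. With a GC trend removed, both genes called higher in that difference (UTP18 and WDR75) lost their calls. The amiloride and TG003 comparisons of a line share their DMSO libraries, so the 2 sets of values are not independent.

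Other measures moved with amiloride too. Mitochondrial genes held 0.359% ± 0.0917 of the reads with amiloride and 4.06% ± 0.192 with DMSO in KMS12-BM (SD, n = 3), and 0.831% ± 0.178 and 2.29% ± 0.282 in JJN3. The summed level of the 8 plasma cell markers was 2822 to 3146 CPM with amiloride against 2072 to 2158 CPM with DMSO in KMS12-BM, where 2 markers rose and 3 fell, and 1396 to 1842 CPM against 1953 to 2139 CPM in JJN3, where 2 fell and none rose. Most of the sum in KMS12-BM was IRF4, a transcription factor of plasma cells, at 2094 ± 123 CPM with amiloride and 1160 ± 37.6 CPM with DMSO, while MZB1, which assists antibody assembly, was at 81.7 ± 27 and 323 ± 31.4 CPM. Their part in the results was not tested.

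**Figure D4:**
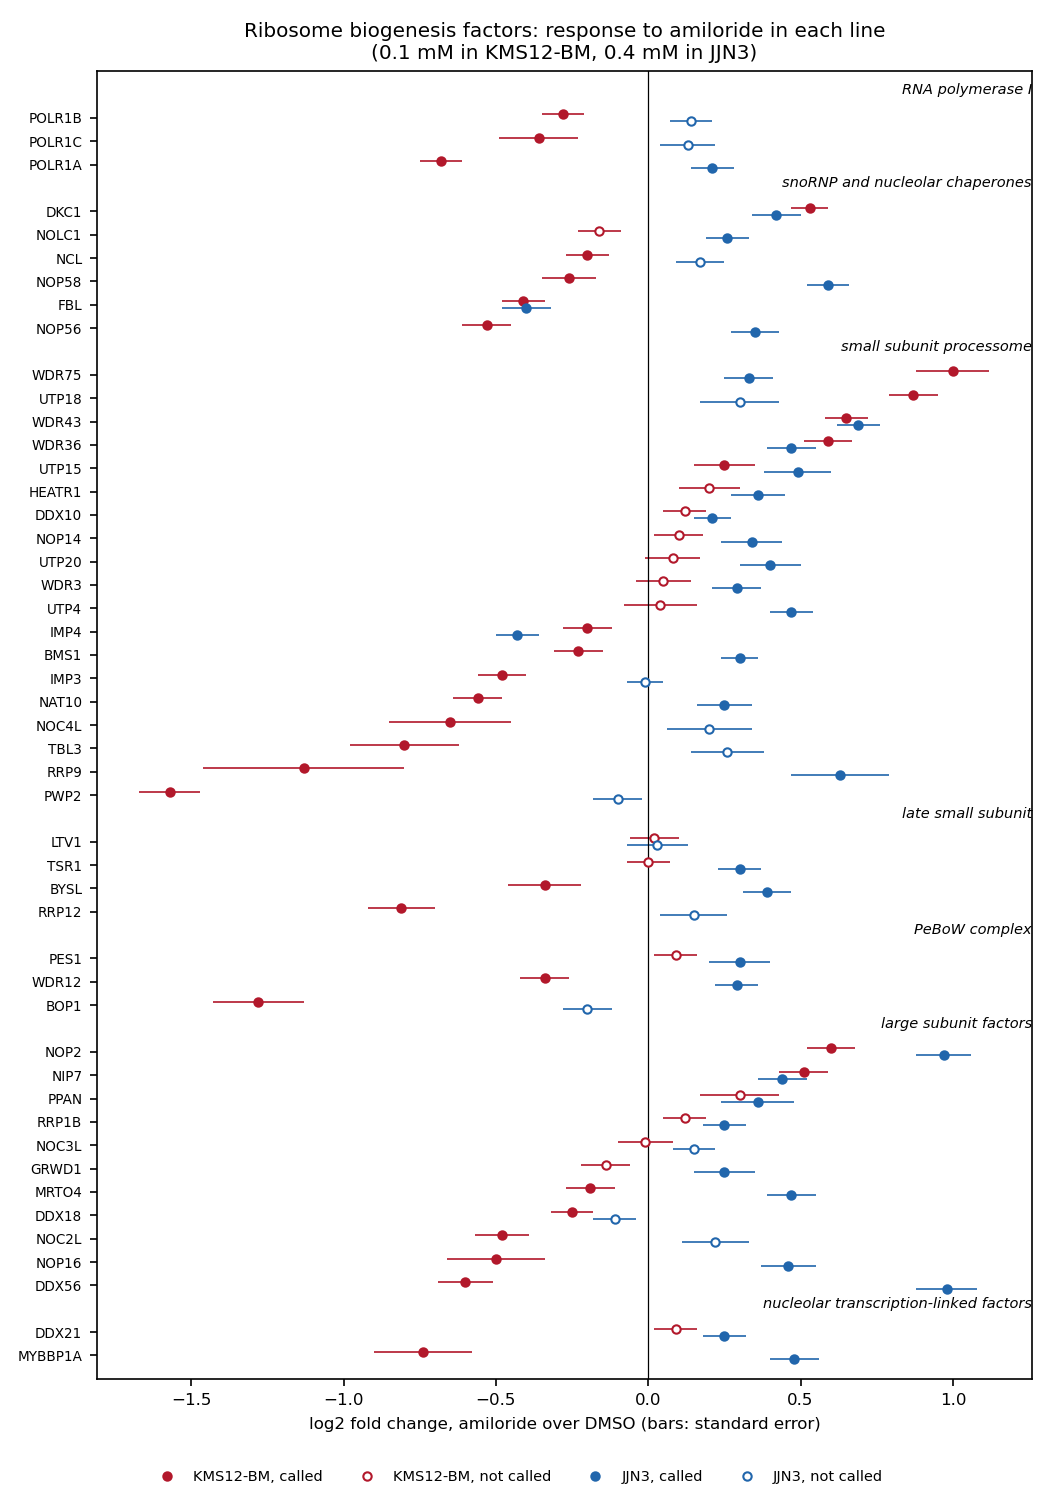
Log2 fold change of each of the 48 genes with amiloride over DMSO in KMS12-BM (red, 0.1 mM) and JJN3 (blue, 0.4 mM), grouped by role; bars are standard errors and filled points were called at an adjusted p under 0.05. The red points spread from -1.57 for PWP2 to 1.0 for WDR75, and the blue ones from -0.43 for IMP4 to 0.98 for DDX56.

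In KMS12-BM the response to amiloride spread widely within the small subunit processome, where 8 genes fell and 5 rose. PWP2, a UTP-B subunit, was at 29.7, 25.1 and 23.5 CPM with amiloride, against 83.1, 78.4 and 71.2 CPM with DMSO, and fell by 1.57 ± 0.10 (adjusted p = 2.02e-07, edgeR). UTP18, in the same subcomplex, was at 307, 330 and 328 CPM with amiloride, against 154, 195 and 178 CPM with DMSO, and rose by 0.87 ± 0.08. Both genes' ranges were apart, in opposite directions. WDR75 was at 140, 154 and 154 CPM with amiloride, against 65.1, 65.8 and 93.1 CPM with DMSO (1.0 ± 0.12), and WDR43 at 206, 229 and 222 CPM against 134, 148 and 136 CPM (0.65 ± 0.07). RRP9 was at 23.5, 23.8 and 7.7 CPM with amiloride, against 43.7, 37.6 and 40.1 CPM with DMSO (-1.13 ± 0.33, adjusted p = 0.0124, edgeR). All 3 libraries lay below the controls, and replicate 3 was far below the other two. Its call was lost without a filter on low counts (adjusted p = 0.0633) and after a GC trend was removed (-0.62, adjusted p = 0.0939, edgeR).

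Outside the processome, BOP1 was at 7.47, 6.65 and 5.11 CPM in KMS12-BM with amiloride, against 17.6, 15.1 and 14.2 CPM with DMSO, and fell by 1.28 ± 0.15. All 3 RNA polymerase I genes fell there (-0.68 ± 0.07 for POLR1A, -0.36 ± 0.13 for POLR1C and -0.28 ± 0.07 for POLR1B). The fall of POLR1C lost its call in the compared groups alone and without KMS12-BM DMSO replicate 3 or amiloride replicate 2 (adjusted p = 0.0542, 0.121 and 0.0857, edgeR). NOP2, DKC1 and NIP7 rose, by 0.60 ± 0.08, 0.53 ± 0.06 and 0.51 ± 0.08. Calls near the threshold moved with the replicate block: MRTO4 (-0.19 ± 0.08) lost its call (adjusted p = 0.0512) and PPAN (0.30 ± 0.13) gained one (adjusted p = 0.0126, edgeR).

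In JJN3 with amiloride, DDX56 was at 183, 212 and 193 CPM, against 110, 105 and 81.6 CPM with DMSO, NOP2 at 185, 178 and 179 CPM against 104, 90.9 and 81.1 CPM, and WDR43 at 138, 153 and 154 CPM against 97.8, 86.1 and 90.4 CPM. No range overlapped, and the rises were 0.98 ± 0.10, 0.97 ± 0.09 and 0.69 ± 0.07. IMP4 was at 89.2, 80 and 89.4 CPM with amiloride, against 117, 115 and 114 CPM with DMSO, and FBL at 496, 538 and 449 CPM against 656, 658 and 627 CPM, and both fell (-0.43 ± 0.07 and -0.40 ± 0.08). BOP1 was at 23, 20.4 and 21.5 CPM against 26.3, 24.2 and 23.2 CPM, and its -0.20 ± 0.08 was not called. FBL and IMP4 were the 2 genes that fell with amiloride in both lines. Another 7 rose in both (NOP2, DKC1, UTP15, WDR36, WDR43, WDR75 and NIP7), while 12 fell in KMS12-BM and rose in JJN3. For these pairs of calls, too, the share of all genes is not given here, and a difference from it was not tested.

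The response to amiloride in KMS12-BM moved with base composition. The exons of the 48 genes are 37.7% to 66.0% G and C. Of the 24 genes above the median of 50.3%, 18 fell and 1 rose with amiloride in KMS12-BM (median log2 -0.49), and of the 24 at or below it, 7 fell and 7 rose (median 0.06). Spearman's rho between GC content and log2 fold change was -0.56 across the 48 genes and -0.38 across 11778 coding genes, as a description, since genes share libraries and are not independent. The values for TG003 were 0.22 and -0.15 in KMS12-BM and 0.08 and -0.12 in JJN3, and for the TG003 line difference 0.23 and -0.04. When the GC trend over all genes was removed, 20 of the 33 amiloride calls in KMS12-BM were kept, 11 were lost (among them FBL, TBL3, MYBBP1A, NOC2L, NOC4L and IMP3), and IMP4 and MRTO4 turned from lower to higher (0.34 and 0.24). All 35 called line differences in the TG003 response were kept.

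The line difference in the amiloride response moved with base composition as well, with a rho of -0.52 across the 48 genes and -0.32 across 13053 coding genes. Among the 24 genes above the median GC content, 19 were called lower and none higher (median -0.78), and among the 24 at or below it, 8 lower and 2 higher (median -0.17). With the GC trend removed, 23 of the 29 calls were kept, 6 were lost (NOP2, UTP18, WDR75, GRWD1, NOC4L and IMP3) and 13 were gained.

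**Figure D5:**
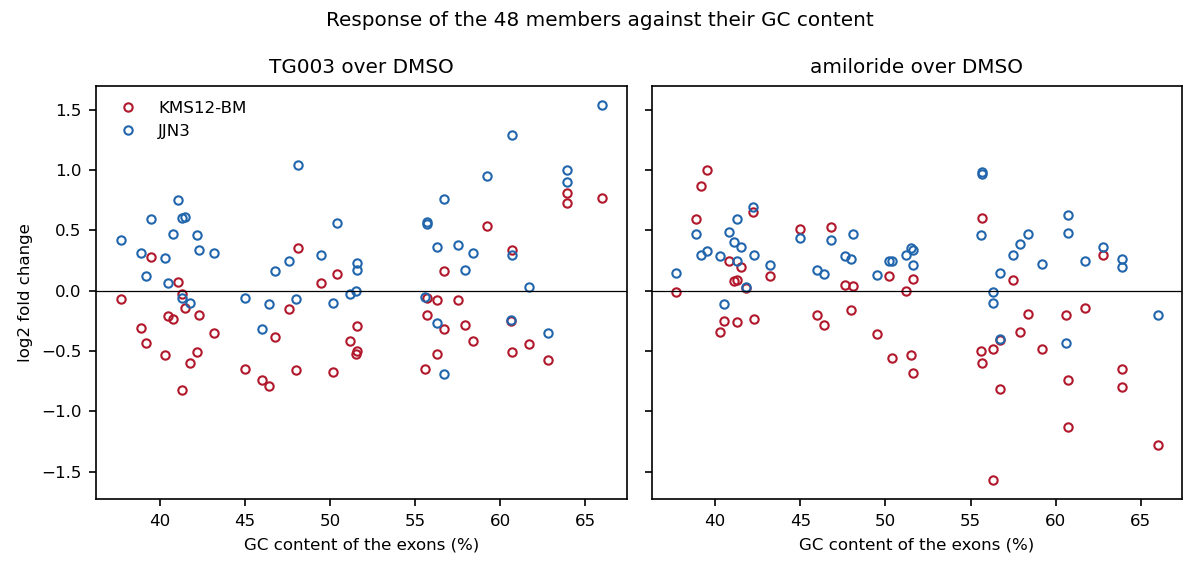
Log2 fold change of the 48 genes against the GC content of their exons, with TG003 (left) and amiloride (right) over DMSO, in KMS12-BM (red) and JJN3 (blue). With amiloride in KMS12-BM the points run downward with GC content (Spearman's rho -0.56); with TG003 they do not (0.22).

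Amiloride and TG003 were both given at 0.4 mM in JJN3, which allows a comparison at 1 dose and time. There 17 genes were higher and 15 lower with amiloride than with TG003, beside 33.3% and 28.9% of all genes, with a median difference of 0.08. BOP1 was at 23, 20.4 and 21.5 CPM with amiloride, against 71, 67.7 and 72 CPM with TG003 (-1.74 ± 0.08), and UTP4 at 161, 182 and 168 CPM against 254, 237 and 248 CPM (-0.57 ± 0.07). PPAN was at 16.5, 16 and 20.9 CPM with amiloride, against 11.6, 9.99 and 10.3 CPM with TG003 (0.71 ± 0.12). By role, 10 of the 19 processome genes were lower and 2 higher, and 5 of the 6 snoRNP and chaperone genes were higher with amiloride. This comparison includes the difference in read placement of the TG003 libraries.

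Other genes of the same pathway were taken from lists of 130 further symbols in 5 groups, of which 126 were found. These lists, too, were chosen with earlier results of these data known. Among all genes tested, the line difference with TG003 was called lower for 6.8% and higher for 7.13%. In the TG003 line difference, 14 of 36 other small subunit factors were called lower, 21 of 42 other large subunit factors, 5 of 16 genes of the RNA exosome and rRNA trimming, 4 of 18 other RNA polymerase I transcription genes and 3 of 14 H/ACA and other nucleolar proteins, and none was called higher in any of the 5. Their medians were -0.37, -0.40, -0.17, -0.07 and -0.28, against -0.52 for the 48. The genes with the smallest adjusted p were PNO1 (-0.87 ± 0.12) and NOL6 (-0.86 ± 0.13) for the small subunit and URB2 (-0.83 ± 0.11) and DDX51 (-1.0 ± 0.15) for the large one. In JJN3 with TG003, 25 of the 42 large subunit factors rose and 1 fell, and in KMS12-BM 7 rose and 17 fell. Among all genes tested, 26.2% rose and 32.1% fell in JJN3, and 26.9% rose and 31.7% fell in KMS12-BM. The helicase DDX47 fell in both lines, at -2.78 ± 0.11 in KMS12-BM and -2.66 ± 0.30 in JJN3, further than any of the 48. NPM1, of the H/ACA and other nucleolar proteins, rose in both, by 1.51 ± 0.07 in KMS12-BM and 1.71 ± 0.07 in JJN3. These changes include the difference in read placement of the TG003 libraries.

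MYC itself was at 753, 740 and 730 CPM in KMS12-BM with TG003, against 1586, 1496 and 1421 CPM with DMSO, and at 1450, 1361 and 1451 CPM in JJN3 with TG003, against 1945, 1994 and 2034 CPM with DMSO. It fell in both lines, by 1.01 ± 0.13 and 0.46 ± 0.07, with a line difference of -0.53 ± 0.15 (adjusted p = 0.0206, edgeR). It also fell with amiloride, by 1.08 ± 0.13 in KMS12-BM and 0.63 ± 0.07 in JJN3, where 32 of the 48 genes rose. Its part in the results was not tested.

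The 48 genes lie on 19 chromosomes, with 9 on chromosome 2. Those with CCGGAAG in the promoter and those without had close counts in the TG003 line difference: 12 of 18 with a median of -0.51, and 17 of 24 with a median of -0.50, were called lower.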

How the data were processed

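The authors deposited 1 table of whole-number read counts per gene for each of the 18 libraries, which were used as deposited. Per the submitters' processing notes, adapters were cut with cutadapt 1.4, reads aligned to hg19 with TopHat2 2.0.11, counted with HTSeq 0.6.1p1 and compared with DESeq2 1.12.4, without options, annotation or strand setting. The deposited normalized tables were not used. HTSeq's records outside genes were left out of library sizes.

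The 48 genes and the pathway and marker lists were chosen with earlier results of these data known. Identifiers were joined to GENCODE (GRCh37), and 55538 of 57905 matched. Counts were fitted with edgeR 4.0.16 in R 4.3.3: filterByExpr (minimum count 10, total 15), TMM scaling and robust quasi-likelihood F tests, with p adjusted by Benjamini-Hochberg over all genes tested. Drug comparisons used the 9 libraries of a line, and line comparisons and line differences all 18. A standard error is the log2 fold change divided by the square root of F, which is approximate. Levels are CPM with TMM factors of all 18 libraries. The fits were tested on simulated data. No label tells whether replicate libraries came from separate cultures, so p-values measure only the spread between these samples. No 2 libraries held identical counts. Without molecular identifiers, reads cannot be counted as molecules.

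Values per library are given for the 6 largest and 6 smallest line differences in the TG003 response and for the 3 largest and 3 smallest fold changes of each drug and line comparison. These genes were picked by the same values, so library ranges that lie apart only describe them. The share of all genes with ranges apart was not computed. A gene of a pathway list is named only where its adjusted p is among the 2 smallest of its list and direction, and not every such gene is named.

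The replicate number is the order of the number in the title within a group. Title numbers run in consecutive sets that each hold 1 library of every group, but no label says what a set shares. Deviations of libraries with the same replicate number were correlated over 9162 genes. The correlations were 0.15 to 0.36 between TG003 and DMSO of KMS12-BM, and 0.29 to 0.32 between TG003 and DMSO of JJN3. They were 0.12 to 0.30 between amiloride and DMSO of KMS12-BM, and 0.05 to 0.10 between amiloride and DMSO of JJN3. Between the DMSO groups of the 2 lines they were -0.02 to 0.05. In KMS12-BM, DMSO replicate 2 correlated more highly with replicate 3 of TG003 (0.171) and of amiloride (0.157) than with replicate 2 (0.149 and 0.116). DMSO replicates 1 and 3 there correlated highest with their own number. The order was taken as a pairing where every correlation of same-number libraries was over 0.1, which does not by itself show a pairing. The main tests did not use it, and it entered only as a block in an alternative fit. Alternatives were DESeq2 1.42.0, limma 3.58.1 (voom), other scalings and filters, the replicate number as a block, the compared groups alone, pseudogene counts summed into their parents, a GC trend removed (lowess span 0.3), and each library left out.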

Additional observations from a re-analysis of the deposited data

Results flagged for a closer look

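Several genes responded to TG003 differently in KMS12-BM and JJN3 by a direct test of the difference (edgeR, adjusted over 17772 genes). The line difference was -0.95 ± 0.10 for WDR43, -0.78 ± 0.18 for MYBBP1A, -0.78 ± 0.11 for WDR12, -0.75 ± 0.16 for BOP1 and -0.73 ± 0.10 for DDX21 on the log2 scale, and 0.40 ± 0.10 for FBL. WDR43, MYBBP1A and WDR12 fell in KMS12-BM and rose in JJN3, BOP1 rose in both lines and further in JJN3, DDX21 fell in KMS12-BM and was not called in JJN3, and FBL fell in both lines and further in JJN3. For MYBBP1A, the fall in KMS12-BM lost its call without KMS12-BM DMSO replicate 1 or TG003 replicate 2 (adjusted p = 0.0643 and 0.064, edgeR) and the rise in JJN3 in a fit of all 18 libraries (adjusted p = 0.0793), while the line difference was called throughout. Over the list, 34 genes had a lower response in KMS12-BM to TG003 and 27 to amiloride, whose dose also differed between the lines. The 2 counts share the DMSO libraries. With 3 libraries a group, single libraries were not tested as outliers.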

How the results depend on the processing

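The counts of genes called lower and higher in the TG003 line difference were 33 to 41 and 1 under the alternatives that keep all libraries or the compared groups, and 28 to 37 and 1 when single libraries were left out. The counts of other comparisons stayed within 1.5 times, with 2 exceptions. In JJN3 with TG003, the genes called lower were 3 to 5 when single libraries were left out, with 3 without TG003 replicate 2. With the GC trend removed, 13 genes rather than 8 rose with amiloride in KMS12-BM, and the median there was -0.14. The replicate block moved no count by over 1.5 times (TG003 in KMS12-BM: 6 higher, 30 lower; in JJN3: 29 and 5). The calls that it changed in the paired comparisons are given above, and it changed no other call there. For amiloride in JJN3, where libraries of the same replicate number correlated at 0.05 to 0.10, it gave 34 higher and 3 lower. Medians of the 48 moved by more than the spread between replicates under upper-quartile scaling (TG003 in KMS12-BM -0.21, amiloride in KMS12-BM -0.27, amiloride line difference -0.46) and under removal of the GC trend (TG003 in JJN3 0.24, amiloride line difference -0.48, amiloride against TG003 in JJN3 0.13). The last of these was 0.12 without a filter and 0.12 in a fit of all 18 libraries, and 0.04 to 0.10 when single libraries were left out. The median of KMS12-BM against JJN3 with DMSO was 0.02 to 0.13 when single libraries were left out, lowest without KMS12-BM DMSO replicate 1. The TG003 line difference of IMP4, not called in any of these, changed sign in the compared groups alone (-0.02), with pseudogene counts summed (-0.03), without KMS12-BM TG003 replicate 3 (-0.01) and without JJN3 TG003 replicate 2 (-0.02; highest 0.07 with a library left out), and those of NOC4L (0.05, lowest -0.25) and TBL3 (0.00, lowest -0.31) did without KMS12-BM DMSO replicate 1. The cause was not tested. The 3 libraries a group, the unknown strand setting and the placement of reads in the TG003 libraries limit all values.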
